A study of Rattus norvegicus with 31 samples.

Results

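Of 21 recombinant inbred rat strains of the HXB/BXH panel, 7 had high Cd36 RNA in the left ventricle of the heart and 14 had low Cd36 RNA. The members were chosen by their measured Cd36 values: a strain was high where the Cd36 value in the table of RefSeq genes was over 13 on the log2 scale and low where it was 13 or less. The 21 libraries are part of 31 in the series, and each strain was represented by 1 library. The difference in Cd36 between both groups therefore follows from the division and is given without a test.

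RNA depleted of ribosomal RNA was sequenced from untreated male rats that were naive to alcohol and drugs, and their age is not in the labels. The high strains were HXB3, HXB20, HXB7, HXB24, BXH10, BXH13 and BXH8. The low strains were HXB13, HXB17, HXB31, HXB21, BXH12, HXB29, HXB1, BXH11, BXH6, HXB25, HXB5, BXH2, BXH5 and BXH9. HXB strains (substrain Ipcv) and BXH strains (substrain Cub) descend from reciprocal crosses of the same progenitors, so that each strain is homozygous for one progenitor's allele or the other's at nearly every position. The progenitors were the spontaneously hypertensive rat SHR/OlaIpcv, with 4 rats, and the Brown Norway congenic BN-Lx/Cub, with 4 rats, none of which was used to divide the strains.

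CD36 is a membrane protein that binds long-chain fatty acids and helps to bring them into cardiomyocytes, endothelial cells and adipocytes. In the heart it stands at the start of the route to fatty acid oxidation, the main source of energy of the working muscle, together with lipoprotein lipase at the vessel wall, carrier proteins in the cytosol and PPAR-alpha, a receptor that senses fatty acids in the nucleus. The rat carries neighbouring copies of the gene on chromosome 4, and SHR/OlaIpcv is known from earlier work to carry a defective Cd36 gene that arose by recombination between copies. In recombinant inbred strains, genes that lie close together are mostly inherited as a block from the same progenitor.

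RefSeq places the gene and its copies near each other on chromosome 4. Among genes it lists as protein coding, the order is Gnat3, Cd36, Cd36l1, LOC134486712, Cd36-ps1 and Sema3c. Cd36l1 stands in the table as RGD1565355. Cd36-ps1, named as a pseudogene but listed there as protein coding, stands as LOC120093085. Cd36 and Cd36l1 were higher in high strains and Cd36-ps1 was lower, and the 3 starts have different letters. The windows around the 3 starts (250 bases before to 50 after) come from a reference and not from these strains. The windows therefore cannot bear on the difference between the groups. They were taken from RefSeq in the build GRCr8, on the plus strand, at chr4:18246332-18246631 for Cd36, chr4:18316556-18316855 for Cd36l1 and chr4:18430702-18431001 for Cd36-ps1. Capitals mark the matches to the TATA box TATAAA or the CCAAT box CCAAT on either strand, motifs that do not overlap each other.
Cd36: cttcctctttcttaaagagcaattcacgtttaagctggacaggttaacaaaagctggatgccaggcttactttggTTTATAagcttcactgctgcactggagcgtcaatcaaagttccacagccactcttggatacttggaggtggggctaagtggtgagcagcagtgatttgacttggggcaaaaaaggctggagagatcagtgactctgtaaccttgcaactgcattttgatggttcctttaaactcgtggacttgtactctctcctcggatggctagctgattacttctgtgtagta
Cd36l1: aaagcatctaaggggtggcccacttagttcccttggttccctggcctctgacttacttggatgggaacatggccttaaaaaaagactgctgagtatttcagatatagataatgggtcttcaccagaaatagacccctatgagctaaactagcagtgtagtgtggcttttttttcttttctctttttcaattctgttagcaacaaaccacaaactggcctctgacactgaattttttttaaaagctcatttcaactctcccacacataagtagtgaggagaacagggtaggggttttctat
Cd36-ps1: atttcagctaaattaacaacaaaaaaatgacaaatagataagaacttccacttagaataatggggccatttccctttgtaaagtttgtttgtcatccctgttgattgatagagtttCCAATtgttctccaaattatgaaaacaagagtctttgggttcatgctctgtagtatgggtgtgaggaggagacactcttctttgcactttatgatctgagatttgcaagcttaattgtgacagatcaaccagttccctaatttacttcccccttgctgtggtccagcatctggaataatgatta
The window of Cd36 held TATAAA on the minus strand, at -175 from the start, and that of Cd36-ps1 held CCAAT on the plus strand, at -134. Cd36l1 held neither, and no window held the consensus direct repeat bound by PPAR receptors. Of 33365 RefSeq promoter windows of the same length, 14.2% held TATAAA, 37.5% held CCAAT and 0.054% held the direct repeat. These matches describe letters and do not show a site in use.

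The Cd36 level was 13.38 at the lowest, 14.02 at the median and 14.32 at the highest in the 7 high strains (mean 13.97 ± 0.33, SD), against 11.84, 12.05 and 12.91 in the 14 low strains (mean 12.15 ± 0.30, SD), all on the log2 scale. The strain just above the threshold was BXH8 at 13.38, and the strain just below it was HXB13 at 12.91. In order, the high strains were HXB3 at 14.32, HXB20 at 14.26, HXB7 at 14.17, HXB24 at 14.02, BXH10 at 13.88, BXH13 at 13.76 and BXH8 at 13.38. Below HXB13 stood HXB17 at 12.58, HXB31 at 12.36 and HXB21 at 12.34, and the other 10 low strains lay between 11.84 and 12.16. The difference of the means was 1.82. With 1 library a strain, the spread within a strain was not measured, so neighbours in this order cannot be told apart by a test. Both libraries of SHR rat 4 in this table had Cd36 at 12.37 and 12.55, among the values of the low strains, and BN-Lx values come from the assembly alone.

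The division was not tied to the crossing direction or to the sequencing batch. Of the 12 HXB strains 4 were high and 8 low, and of the 9 BXH strains 3 were high and 6 low (Fisher's exact test, two-sided, p = 1.0). The smaller batch held 2 high and 4 low strains, and the larger batch 5 high and 10 low strains (Fisher's exact test, two-sided, p = 1.0). Library medians over all genes ran from 7.90 to 7.94 in high strains, against 7.89 to 7.95 in low strains. The summed levels of 10 cardiomyocyte markers ran from 22.06 to 22.30 in high strains, against 21.94 to 22.31 in low strains, so the cardiac muscle markers were present in every library. Those of 12 endothelial markers, cells that also carry CD36, ran from 15.68 to 15.99 in high strains, against 15.47 to 15.87 in low strains. Over 13 such measures (median, spike-in RNAs and 11 marker lists), the smallest exact permutation p was 0.191, for fibroblast markers at a difference of -0.09 (adjusted p = 0.961, two-sided). In bulk tissue, fewer cells of a type and less RNA per cell cannot be told apart.

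All 7 Cd36 transcripts of RefSeq were measured, and the groups did not overlap for 6 of them. The transcript XM_039107194.1 had the largest share of the summed Cd36 transcript level, on average 49.5% in high strains and 45.8% in low strains. It ran from 12.44 to 13.20 with a median of 13.02 in high strains, against 10.48 to 11.61 with a median of 10.80 in low strains. The differences of the means lay between 1.37 for XM_039107191.1 and 2.57 for XM_039107192.1. The groups overlapped for XM_039107191.1, where BXH8 had 9.54 and HXB13 had 9.85. Since these values add up to the one that divided the strains, they describe which transcripts carried it and no test was made.

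When all other genes were compared with batch as a covariate, 2 of 19099 genes passed an adjusted p of 0.05 (limma, Benjamini-Hochberg, two-sided), which is 0.0105% of the genes tested, and both are the named copies of Cd36. RGD1565355 (Cd36l1) was at 11.05 at the lowest, 11.57 at the median and 12.13 at the highest in high strains, against 8.22, 8.62 and 9.43 in low strains. It was higher in high strains without overlap, by 2.89 (SE 0.15, limma adjusted p = 1.91e-11). LOC120093085 (Cd36-ps1) was at 9.64, 10.10 and 10.26 in high strains, against 11.92, 12.83 and 13.60 in low strains. It was lower in high strains without overlap, with a difference of -2.83 (SE 0.16, limma adjusted p = 1.96e-10). The plot of Cd36 and its copies by strain shows the opposite order of both copies in every strain. Within the smaller batch the differences were 2.56 for RGD1565355 and -3.29 for LOC120093085, and within the larger batch 3.03 and -2.65. The count of genes without overlap between the groups was also 2 of 19099 (0.0105%), the same pair. Near-identical copies can share reads, and how reads were divided among them is not given in the sources used here, so these tests are not independent of the value that divided the strains.

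**Figure D1:**
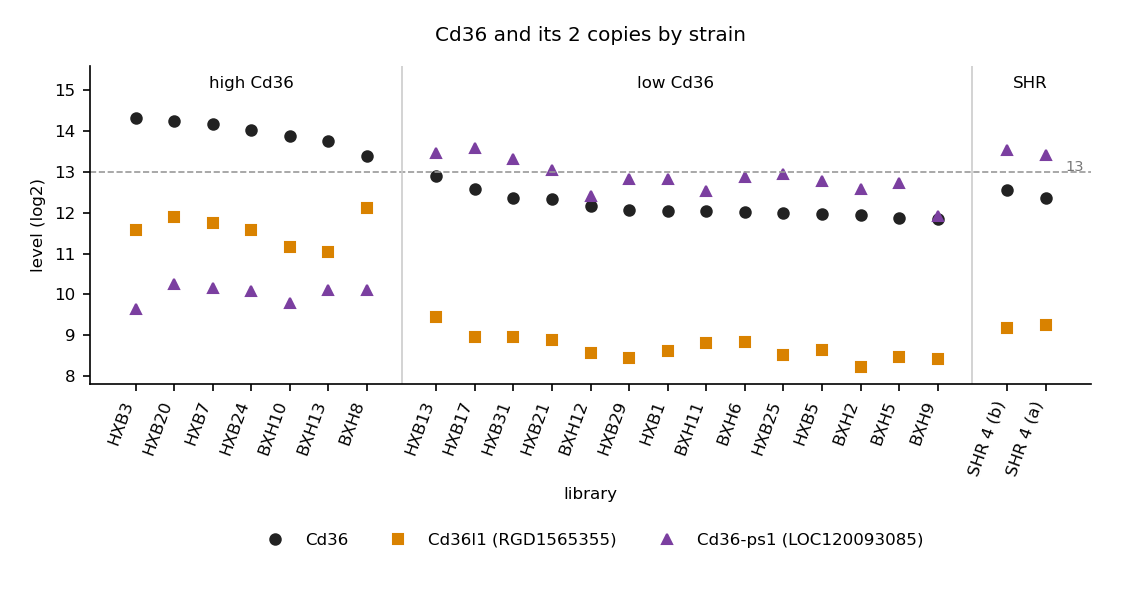
Levels (log2, vertical axis) of Cd36 (circles), Cd36l1 (squares) and Cd36-ps1 (triangles) in each library, with the 7 high strains at the left, the 14 low strains next and both libraries of SHR rat 4 (a and b) at the right; the dashed line is the threshold of 13. Cd36-ps1 lies below Cd36l1 in the 7 high strains and above it in the 14 low strains and in both SHR libraries.

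The copies also divided the total in different ways. Taking 2 to the power of each value as a linear level, Cd36-ps1 held 3.29% to 6.79% of the summed level of the 3 genes in high strains (mean 5.21% ± 1.14, SD), against 49.2% to 65.2% in low strains (mean 59.7% ± 4.54, SD). In the SHR libraries it held 65.0% and 64.4%. The summed level itself ran from 13.99 to 14.59 with a median of 14.34 in high strains, against 12.94 to 14.27 with a median of 13.54 in low strains. Those ranges overlapped, through HXB13 at 14.27 and HXB17 at 14.21, and the difference of the means was 0.71, less than that of Cd36 alone. The transformation behind the log2 values is not stated, so these shares assume a plain logarithm.

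The authors assembled the reads of the locus into 1 gene, which the deposited annotation places at chr4:17259889-17543808 of rn7 on the plus strand, with 35 transcripts and 100 exons. It lies between Gnat3 (chr4:17162500-17266977), a G protein subunit of taste cells, and Sema3c (chr4:17583212-17747234), a secreted semaphorin that guides cells of the developing outflow tract, both on the minus strand. The annotation does not carry the name Cd36, and the name RGD1565355 stands on 1 of its transcripts, which need not be the copy of that name in RefSeq. As a whole, this gene ran from 14.97 to 15.42 in high strains, against 14.29 to 15.50 in low strains. The groups overlapped, and the difference was 0.37 (SE 0.12, limma adjusted p = 1.00). In the progenitors it was 14.94, 15.09, 14.90 and 14.88 in the 4 SHR rats, against 15.20, 14.92, 15.20 and 15.09 in the 4 BN-Lx rats, a difference of -0.15 (SE 0.08, limma adjusted p = 0.226). Over the whole locus neither comparison passed the threshold.

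Single transcripts of the locus separated both the progenitors and the strains. SHR and BN-Lx were compared over 91969 assembled transcripts, of which 5.53% passed the threshold. Of 28 measured transcripts at the locus 19 were called (limma), 10 higher in SHR (2.72% of all transcripts were called in that direction) and 9 lower in SHR (2.81%). This comparison was chosen after its values were seen, and transcripts that overlap share reads. All 19 had the opposite sign in high minus low strains, so that the high strains stood on the side of BN-Lx and the low strains on the side of SHR. The SHR and BN-Lx libraries compared here were sequenced in a batch of their own, apart from both batches of the strains. SHR rat 4 was also sequenced in both batches of the strains, but those libraries were not used in this comparison. Differences in level between progenitors and strains here therefore cannot be told apart from batch. Between the strains 15 of 91969 transcripts did not overlap (0.0163%), of which 13 are at the locus, 6 with the high strains above the low ones and 7 with the high strains below. The locus chose the groups, so this last count and the shared sign of the 19 transcripts describe it and are no test. The share of opposite signs over all called transcripts was not counted.

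PRN7.71T0047236, with 16 exons at chr4:17318764-17410084 in the first part of the locus, was at 10.36 at the lowest, 10.81 at the median and 11.27 at the highest in high strains, against 3.66, 5.54 and 9.16 in low strains. In the progenitors it was 3.56, 5.53, 5.04 and 3.99 in the SHR rats, against 10.66, 10.45, 10.16 and 9.94 in the BN-Lx rats. SHR and BN-Lx did not overlap, with a difference of -5.78 (SE 0.42, limma adjusted p = 0.000132). PRN7.71T0438367, with 12 exons at chr4:17487837-17515788 in the last part of the locus and the one that carries the name RGD1565355, had the reverse order. It ran from 3.21 to 5.55 with a mean of 4.29 in high strains, against 10.01 to 13.11 with a mean of 11.84 in low strains. In the progenitors it was 13.64, 13.67, 13.48 and 13.51 in the SHR rats, against 6.16, 5.77, 4.16 and 3.74 in the BN-Lx rats. The difference was 8.62 (SE 0.50, limma adjusted p = 3.75e-05), and SHR lay above BN-Lx without overlap.

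Position along the locus did not settle the direction of the other called transcripts. PRN7.71T0047233, which shares the first part, differed by -3.74 (SE 0.40, limma adjusted p = 0.00115) between SHR and BN-Lx. PRN7.71T0438362, at chr4:17424749-17465836 in the middle, differed by -2.74 (SE 0.17, limma adjusted p = 5.11e-05). PRN7.71T0438366, which runs from the middle to the last part, differed by 7.91 (SE 0.39, limma adjusted p = 1.40e-05), and PRN7.71T0438361 by 5.43 (SE 0.31, limma adjusted p = 3.75e-05). Higher in SHR were also PRN7.71T0438353, confined to the first part at chr4:17354226-17385291, with 1.88 (SE 0.27, limma adjusted p = 0.00494), and PRN7.71T0438344 at chr4:17317331-17441000, with 5.65 (SE 0.27, limma adjusted p = 1.09e-05). PRN7.71T0438349, which runs from the first to the last part, was lower in SHR, with -4.16 (SE 0.50, limma adjusted p = 0.00209). Of the 9 transcripts that were not called, PRN7.71T0438342, at the start of the locus, averaged 11.46 in SHR and 11.75 in BN-Lx, with 11.51 in high strains and 11.37 in low strains. The plot of assembled transcripts shows the exons beside the group means.

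**Figure D2:**
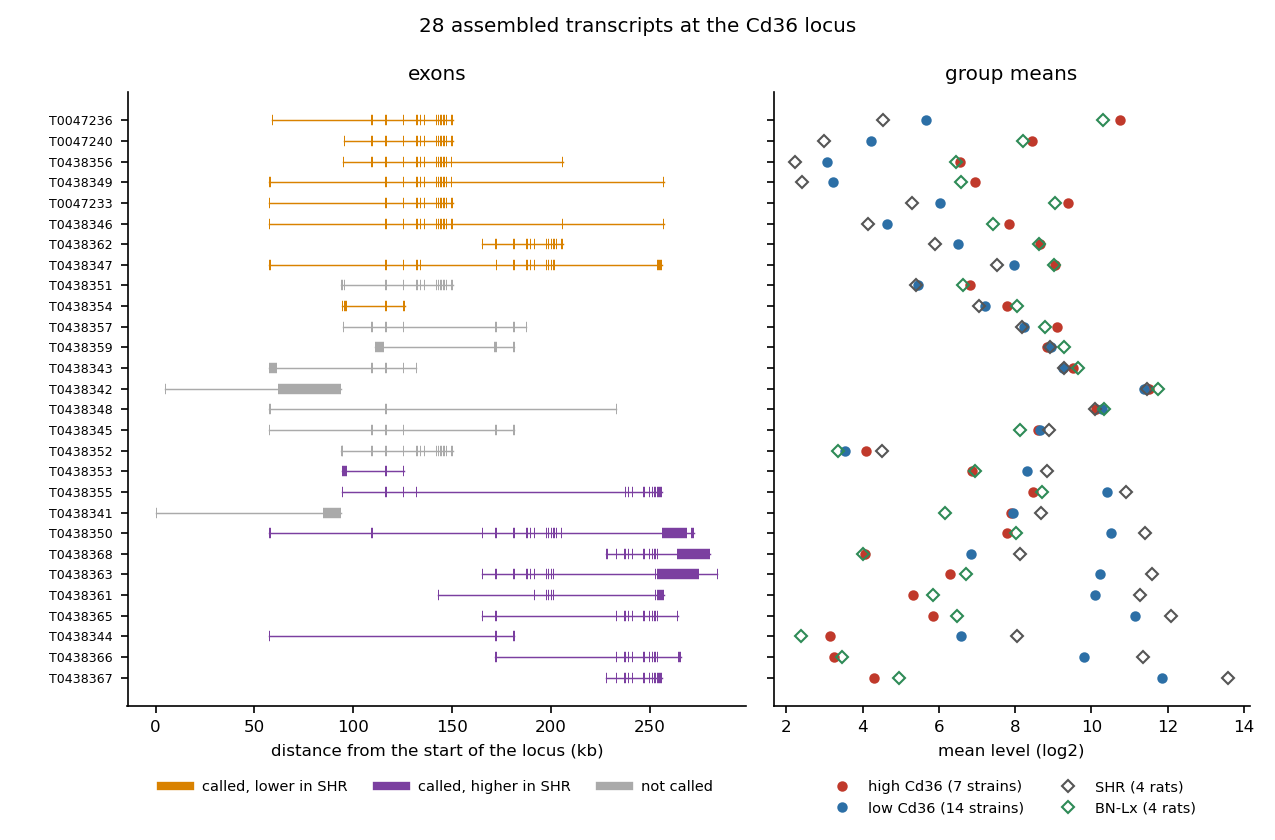
The 28 measured assembled transcripts of the locus, from the lowest to the highest difference of SHR minus BN-Lx; left, exons against the distance from the start of the locus (kb), right, mean levels (log2) of 7 high strains, 14 low strains, 4 SHR rats and 4 BN-Lx rats. At both ends of the order the high strains lie on the side of BN-Lx and the low strains on that of SHR. The SHR and BN-Lx libraries shown came from a separate batch. The 9 called transcripts lower in SHR lie toward the top and the 10 called transcripts higher in SHR toward the bottom. PRN7.71T0438351 (-1.24) and PRN7.71T0438341 (2.50), which were not called, lie among them.

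The strains nearest to the threshold stood apart from their groups. HXB13, the highest low strain in Cd36, had PRN7.71T0047236 at 9.16, whereas the other 13 low strains had 3.66 to 6.48, and it also had PRN7.71T0438367 at 13.11, the highest of the low strains. HXB13 thus had these 2 transcripts at high levels among the low strains. Other transcripts that were higher in high strains without overlap went both ways in HXB13. PRN7.71T0438349 was at 6.16, the highest of the low strains, but PRN7.71T0438356 was at 1.68, near the lowest low strain at 1.51. BXH8, the lowest high strain in Cd36, had the highest RGD1565355 of all strains at 12.13. BXH8 also had PRN7.71T0438344 at 10.31, whereas the other 6 high strains had 1.28 to 3.42, and PRN7.71T0438348 at 4.83, whereas the other 6 had 10.46 to 11.25. Both strains were named for these transcripts after their values were seen. Without BXH8 and HXB13, the same 2 RefSeq genes passed the threshold.

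To separate the neighbourhood of Cd36 from the rest of the genome, genes were placed by the deposited annotation. Within 10 Mb of the locus 78 genes other than Cd36 were tested, and 1 was called, RGD1565355. A further 23 genes had no position in it but are flanked by genes of the window in RefSeq, and 1 of those was called, LOC120093085. At an unadjusted p under 0.05, where 405 of 19099 genes (2.12%) lay over the whole table, 12 of the 78 window genes (15.4%) were found, 9 of them higher and 3 lower in high strains. Without RGD1565355 these were 11 of 77 (14.3%). Of the 23 flanked genes with no position it was 7 (30.4%), LOC120093085 among them, with 5 higher and 2 lower in high strains. On the rest of chromosome 4 the count was 28 of 775 (3.61%), and on all other chromosomes 228 of 13064 (1.75%), with 0 calls in both by limma. Genes of the window are inherited together and are not independent, so no test of these shares was made.

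**Figure D3:**
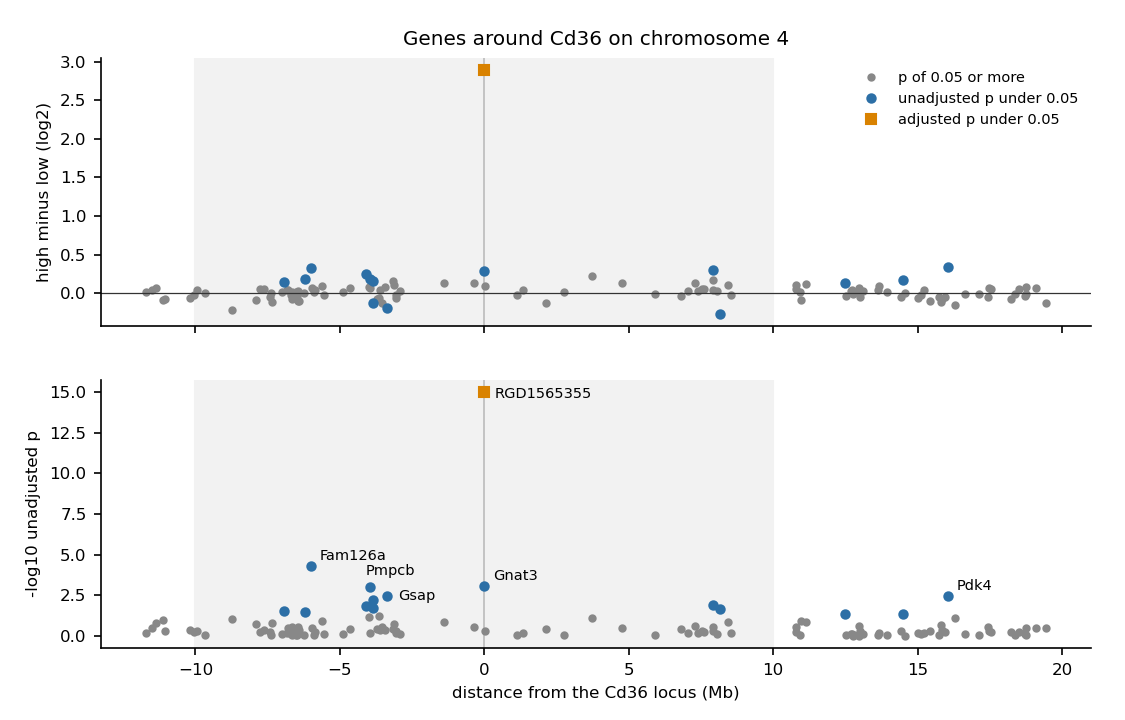
Genes within 20 Mb of the Cd36 locus on chromosome 4 by distance from it (Mb), with the difference of high minus low strains (log2) above and the negative log10 of the unadjusted limma p below; the grey band is the window of 10 Mb. RGD1565355 alone passes the adjusted threshold, at a difference of 2.89, and the next smallest p is that of Fam126a, at 0.32.

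Leaving out the copies and genes with no position, the 12 measured genes nearest to Cd36, 6 on each side, differed by -0.13 to 0.28. None of them was called. Gnat3 lies on the other strand, and its start reaches into the span of the assembled locus. Its level was 3.36 at the lowest, 3.65 at the median and 3.92 at the highest in high strains, against 3.14, 3.42 and 3.61 in low strains. The groups overlapped, and the difference was 0.28 (SE 0.07, limma unadjusted p = 0.000895, adjusted p = 0.906). It was the only one of the 12 with an unadjusted p under 0.05. Sema3c on the other side differed by 0.09 (SE 0.12), Gnai1, an inhibitory G protein subunit, by 0.13 (SE 0.12), Hgf, the hepatocyte growth factor, by -0.02 (SE 0.10) and Sema3a, a secreted semaphorin that repels axons, by 0.22 (SE 0.12), each with a limma adjusted p of 1.00.

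Farther out, Fam126a, whose product helps to anchor a lipid kinase at the plasma membrane, lay 5.99 Mb before Cd36. It was at 10.41, 10.61 and 10.71 in high strains, against 10.01, 10.25 and 10.66 in low strains. The groups overlapped, and the difference of 0.32 (SE 0.06) had a limma adjusted p of 0.187. It passed the threshold with family as a further covariate (limma adjusted p = 0.0271), with the Cd36 value as a continuous regressor (limma adjusted p = 0.0440) and without HXB29 (limma adjusted p = 0.00715).

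SHR and BN-Lx gave a comparison of the window in rats that did not divide the strains. Of 72 window genes matched to an assembled gene, 12 were called (limma, 14.3% of 46063 assembled genes), 6 higher in SHR (7.38% of all) and 6 lower in SHR (6.95% of all). This share was near that over all genes and is no result about the window. Each of the 12 had the opposite sign in high minus low strains, and 4 of them (Pmpcb, Napepld, Klhl7 and Reln) had an unadjusted p under 0.05 there. Of the 10 matched genes with an unadjusted p under 0.05 between the strains, other than the copies, 9 had the opposite sign in SHR minus BN-Lx. Not every sign was clear of its SE: between the strains Tmem243 differed by 0.03 (SE 0.07) and Smarcd3 by -0.03 (SE 0.10). Genes of the window are inherited together, and the share of opposite signs over all called genes was not counted, so these signs are no test. The count of 12 was 6 to 9 when 1 rat was left out, being 7 without BN-Lx 1, 6 without BN-Lx 4, 7 without SHR 2 and 6 without SHR 4, and it was 3 without the intensity trend.

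Pmpcb, a subunit of the peptidase that removes import signals of mitochondrial proteins, was at 11.59 to 11.81 in the SHR rats, against 12.06 to 12.35 in the BN-Lx rats. The progenitors did not overlap, and Pmpcb was lower in SHR, with a difference of -0.48 (SE 0.08, limma adjusted p = 0.00216). In the strains it was 12.11, 12.16 and 12.50 in high strains, against 11.96, 12.04 and 12.20 in low strains, a difference of 0.18 (SE 0.05, limma adjusted p = 0.928). Reln, a secreted matrix protein of neurons and lymphatic vessels, differed by -0.45 (SE 0.14, limma adjusted p = 0.0495) between SHR and BN-Lx, and by 0.24 (SE 0.09, limma adjusted p = 1.00) between high and low strains. Napepld, an enzyme that makes N-acylethanolamines, differed by 0.33 (SE 0.08, limma adjusted p = 0.0175) between the progenitors and by -0.13 (SE 0.05, limma adjusted p = 1.00) between the strains. Klhl7, an adaptor of a ubiquitin ligase, differed by -0.25 (SE 0.08, limma adjusted p = 0.0412) and 0.18 (SE 0.08, limma adjusted p = 1.00) in the same comparisons.

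**Figure D4:**
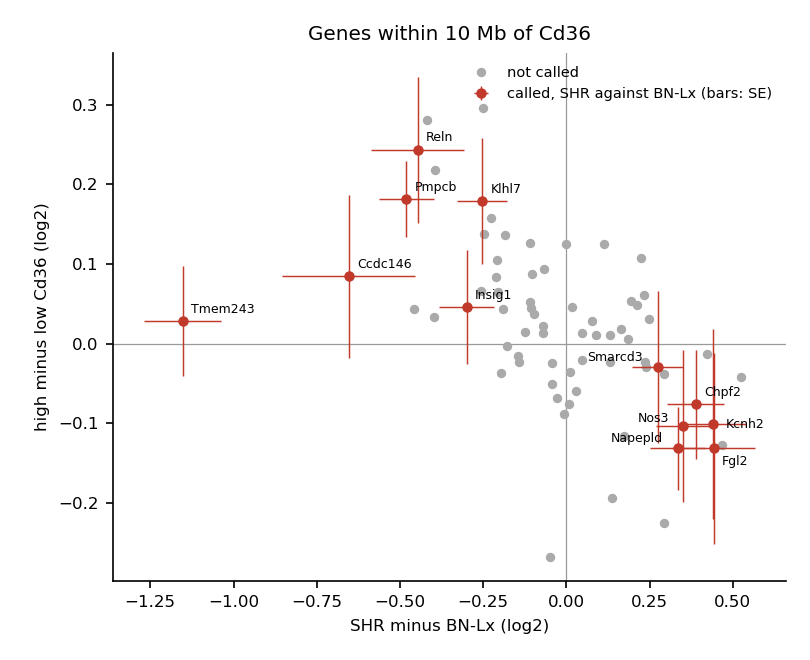
The 71 matched genes within 10 Mb of Cd36, without RGD1565355, by the difference of SHR minus BN-Lx (horizontal, log2) and of high minus low Cd36 strains (vertical, log2), with SE bars for the 12 called between SHR and BN-Lx. All 12 lie at the upper left or lower right of the crossing lines, from Tmem243 at -1.15 to Fgl2 and Kcnh2 at 0.44 on the horizontal axis.

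Outside the window no gene with a position was called by limma (0 of 13839), and 256 (1.85%) had an unadjusted p under 0.05, 133 higher and 123 lower in high strains. The median difference over those genes was 0.0037. The count of calls was 0 on every other chromosome and for the 5159 genes with neither a position nor flanking genes in the window, of which LOC120099209 was called without BXH2 or without HXB24 and LOC120097492 with family as a further covariate. Among genes with a position it was 1 when BXH5, HXB31 or HXB5 was left out, each time Nefh, a neurofilament subunit, and 1 without HXB7, when it was Hopx, a homeodomain protein of the heart. Nefh ran from 6.77 to 7.15 with a mean of 6.94 in high strains, against 4.49 to 6.99 with a mean of 5.32 in low strains. The groups overlapped through BXH5 at 6.98, HXB31 at 6.98 and HXB5 at 6.99, the same strains whose single removal brought the call. The other low strains had 4.49 to 5.19, so the low mean lay above all of them. The difference was 1.62 (SE 0.33, limma adjusted p = 0.197).

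The genes of fatty acid use and of the pathways around it were not among the calls. Over 12 lists, 314 distinct genes were measured, none was called, and 8 (2.55%) had an unadjusted p under 0.05, 3 higher and 5 lower in high strains, beside 2.12% over all genes. The medians of the lists lay between -0.03 and 0.04. The 95% interval of a pathway gene reached, at the median, 0.170 to each side of its value, and 96.5% of the genes had an interval wholly within 0.5 on either side of 0. Differences over 0.5 were thus outside the intervals of most of these genes.

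Among genes of uptake, Fabp3, the fatty acid carrier of the cardiomyocyte cytosol, averaged 16.50 ± 0.11 in high strains and 16.44 ± 0.13 in low strains (SD), a difference with a 95% interval from -0.08 to 0.20. Lpl, the lipase that frees fatty acids from circulating triglycerides, averaged 15.90 ± 0.12 in high strains and 15.87 ± 0.10 in low strains, with an interval from -0.09 to 0.15. For Slc27a1, a fatty acid transport protein, the interval was -0.15 to 0.18, and for Slc2a4, the insulin-responsive glucose transporter, -0.17 to 0.21. For Ppara it was -0.15 to 0.08. The signs of Fabp3, Lpl, Slc27a1, Slc2a4 and Ppara each turned under at least 1 alternative. Angptl4, an inhibitor of lipoprotein lipase and a PPAR target, was at 5.81, 6.10 and 7.02 in high strains, against 6.01, 6.54 and 7.86 in low strains. The groups overlapped over most of their ranges, and the difference was -0.46 (SE 0.22, limma adjusted p = 1.00).

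In the other lists the members with the smallest p differed by less than this, each with a limma adjusted p of 1.00. Pdk4, the kinase that shuts off pyruvate dehydrogenase when fatty acids are burnt, was at 9.59, 10.06 and 10.17 in high strains, against 9.20, 9.60 and 10.02 in low strains. The groups overlapped, and the difference was 0.34 (SE 0.10, limma unadjusted p = 0.00348). Pdk4 lies on chromosome 4 itself, 16.0 Mb after Cd36. Fads1, a desaturase that makes polyunsaturated fatty acids, differed by 0.23 (SE 0.07), Etfb, which passes electrons from fatty acid oxidation to the respiratory chain, by 0.12 (SE 0.08), and Irs1, an adaptor of the insulin receptor, by -0.18 (SE 0.08). Thbs2, a matrix protein related to a ligand of CD36, differed by -0.10 (SE 0.04), Bcat2, the first enzyme of branched-chain amino acid breakdown, by -0.15 (SE 0.10), and Ndufa1, a subunit of complex I, by 0.09 (SE 0.06). Fhl1, a sarcomere protein of hypertrophy, differed by 0.09 (SE 0.06), Prdx3, a mitochondrial peroxidase, by 0.10 (SE 0.06), and Zbtb16, a candidate for blood pressure and heart mass in SHR, by 0.25 (SE 0.19). The plot of pathway genes shows each list around 0.

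**Figure D5:**
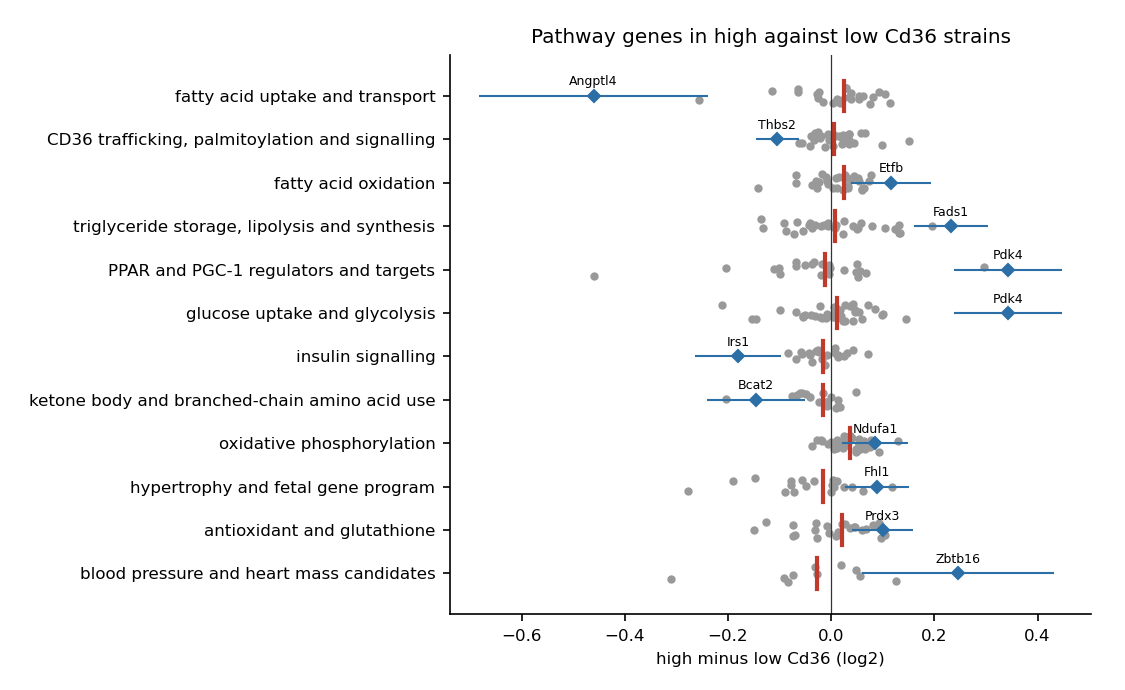
Difference of high minus low strains (log2) for the measured genes of 12 pathway lists, 1 point a gene (Cd36 left out), with a red bar at the list's median and a named diamond with SE for the member with the smallest p. The medians lie between -0.03 and 0.04, and none of the 314 genes was called.

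The difference between high and low strains was also compared between the families. None of 19099 genes was called for a difference of HXB and BXH in this respect (0% of all, limma), 472 had an unadjusted p under 0.05, and the smallest adjusted p was 1.00. RGD1565355 was higher in high strains by 2.89 among the HXB strains and by 2.90 among the BXH strains, and LOC120093085 was lower, with a difference of -3.07 among the HXB strains and -2.52 among the BXH strains. The difference of differences, HXB minus BXH, was -0.01 (SE 0.28, limma adjusted p = 1.00) for RGD1565355 and -0.55 (SE 0.26, limma adjusted p = 1.00) for LOC120093085.

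Outside the window, the 5 genes most like Cd36 over the 21 strains, by Pearson correlation after centring within batch, were Rasl11b (r = -0.76), Sel1l3 (r = -0.75), Mylip (r = -0.74), Ric3 (r = 0.74) and Abcg1 (r = -0.74). These correlations describe the genes chosen as most alike out of the whole table, and the points share strain, batch and the division into groups. Sel1l3, a membrane protein of little known function, was at 4.20, 4.42 and 4.54 in high strains, against 4.39, 4.99 and 5.49 in low strains. The groups overlapped, with the high median above the lowest low strain, and the difference was -0.55 (SE 0.12, limma adjusted p = 0.388). Abcg1, which exports cholesterol, ran from 8.35 to 8.998 with a median of 8.55 in high strains, against 8.55 to 9.39 with a median of 8.99 in low strains. The groups overlapped, and the difference of -0.42 (SE 0.10, limma adjusted p = 0.805) was -0.57 within the larger batch and -0.06 within the smaller batch.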

How the data were processed

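Left ventricle RNA of 21 recombinant inbred strains (1 library each), 4 SHR and 4 BN-Lx rats was analysed. The authors deposited log2 values, in tables of RefSeq genes and transcripts and of genes and transcripts assembled from the reads. The transformation is not given in the sources used here, and no counts were used, which leaves the depth unknown and values without counting intervals. The submitters' processing notes name, with no role for each, the build rn7 and the tools RSEM 1.3.1, StringTie 1.3.5, HISAT2 2.1.0, Bowtie2 2.3.4.3 and cutadapt 1.9.1, and DESeq2 with no version. How reads shared by the Cd36 copies were assigned is therefore unknown, and this can move reads between the copies. Start and end positions are those of the exon annotation deposited by the authors. Of the RefSeq genes 13738 were placed by symbol and 179 by synonym, and 5182 had no position.

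The strains were divided at a Cd36 level of 13. The members, the gene lists and the window of 10 Mb were chosen with earlier results of these data known. High and low strains were compared over 19100 genes by two-sided moderated tests in limma 3.58.1 (R 4.3.3; eBayes, trend on), with batch from the column suffix as a covariate, Benjamini-Hochberg adjustment over all genes and a threshold of 0.05. The samples are separate strains, so p-values measure the spread between strains. SHR and BN-Lx were compared over 46063 assembled genes and 91969 assembled transcripts without covariates. A RefSeq gene was matched to the assembled gene with its symbol alone and the highest mean. For the comparison between families, an interaction term was added. Exact permutation tests (scipy 1.17.1, 116280 permutations) were run on 13 measures of each library, and Fisher's exact test on family and batch. Spike-in RNAs (69 in the RefSeq gene table, 70 in the assembled tables) were left out of all tests. In each assembled table, a single column (1) of SHR rat 4 was not used, because its batch could not be told from its name. Each fit was first tested on simulated data in which sets of 50 features had a known change. All sizes were planted at once, with noise independent between features, and many true changes ease the adjusted threshold. In the data, high against low strains gave 2 called genes. Nefh, at a difference of 1.62, was not called (limma adjusted p = 0.197). The shares recovered may therefore overstate what the same fits could find in the data. For high against low strains, 34% of changes of 0.25, 90% of 0.5 and 96% of 1 were recovered, with 14 false calls among 19100 genes. For the difference between families 26% of changes of 0.5 and 78% of 1 were recovered, and for SHR against BN-Lx 30% of changes of 1 among genes and 2% among transcripts.

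Named genes were Cd36, the called genes of the window and the 6 nearest measured genes with a position on each side, without the copies. Up to 15 called genes elsewhere were named too, and for each pathway list the called members or the one with the smallest p. Also named were Fabp3, Slc27a1, Slc2a4, Ppara, Lpl and Pdk4, and the 5 genes most like Cd36. Fam126a, Pmpcb, Reln, Napepld, Klhl7, Nefh, Hopx, LOC120093085, the assembled transcripts and the genes of the closing section are named outside this rule, after their values were seen. The alternatives covered the trend, a continuous Cd36 value, covariates, normalization, low values, left-out libraries, single batches and families, the assembled table, the window's width and a replicate block. Replicate numbers of SHR and BN-Lx did not pair the rats, so the main fit has no block. Python 3.11.15, numpy 2.4.6, pandas 2.3.3 and matplotlib 3.10.9 were also used.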

Additional observations from a re-analysis of the deposited data

Results flagged for a closer look

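Of 78 groups of values examined, 6 held a library whose gap to the nearest of the others was large for the range of its group, where chance gives about 1 in 20 groups. In the high strains BXH8 stood apart for 3 genes and for 2 assembled transcripts of the Cd36 locus, both named for that reason. Sema3a was at 5.27 in BXH8, against 5.86 to 6.08 in the other 6 high strains. Prdx3 was at 13.59 in BXH8, against 13.21 to 13.37 in the others. Pmpcb was at 12.50 in BXH8, against 12.11 to 12.27 in the others. Of the transcripts, PRN7.71T0438344 was at 10.31 in BXH8, against 1.28 to 3.42 in the others, and PRN7.71T0438348 was at 4.83 in BXH8, against 10.46 to 11.25. Among the BN-Lx rats, the assembled transcript PRN7.71T0438366 of the Cd36 locus was at 4.77 in BN-Lx 2, against 2.96 to 3.05 in the other 3. That transcript was at 11.17 to 11.46 in the SHR rats, so the library did not bring the groups near each other.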

How the results depend on the processing

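The calls of RGD1565355 and LOC120093085 held under each alternative run on the RefSeq table. In the window, the 1 called gene became 2, with Fam126a added, with the Cd36 value as a continuous regressor and with batch and family as covariates. It became 0 of 263 in the table of assembled genes, where the copies are 1 gene, and stayed between 1 and 2 without single strains (2 without HXB29). Elsewhere, 0 called genes became 0 to 1 without single strains, 1 among only the BXH strains (Postn), and 2 in the table of assembled genes. Those 2 carry no name, at chr6:96867274-96909678 (difference -1.54, limma adjusted p = 0.00324) and chr13:13299402-13299908 (difference -1.85, limma adjusted p = 0.0236). The cause of these changes was not tested. LOC120097492 was also called with batch and family as covariates, LOC120099209 in the smaller batch and without BXH2 or HXB24, and LOC120102331 in the smaller batch, 3 genes with no position.

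Between SHR and BN-Lx, 12 called window genes became 3 without the intensity trend, 7 with a replicate block, 6 to 9 without single rats, 5 of 28 in a window of 5 Mb and 21 of 121 in one of 20 Mb. With the replicate block 17 of the 28 transcripts at the locus were called, and 19 to 20 without single rats. The alternatives for transcripts were chosen after seeing the data. Deviations of rats with the same number correlated at -0.08 to 0.07.

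Over the 41 named genes and the settings that refitted the RefSeq genes, 1303 of 1347 values kept their sign and side. A further 7 passed the threshold in addition and 37 turned sign, none of a called gene. With a continuous Cd36 value the slope per log2 unit of Cd36 was 0.0375 for Hgf, -0.0235 for Slc27a1 and -0.0378 for Slc2a4. These slopes are on another scale than the differences of high minus low that follow. Without both strains nearest to the threshold the difference was 0.0226, -0.0221 and -0.0518 for the same genes. Without single strains it ran from -0.0826 to 0.0547 for Hgf, -0.0353 to 0.0786 for Slc27a1, -0.0285 to 0.0533 for Slc2a4 and -0.00787 to 0.0623 for Lpl. In the larger batch alone it was 0.0858 for Hgf, -0.0919 for Slc27a1 and -0.00818 for Slc2a4, and in the smaller batch -0.0391 for Gnai1, -0.29 for Sema3c, 0.0721 for Bcat2, 0.0328 for Ppara and -0.0597 for Lpl. Among only the HXB strains it was 0.0667 for Hgf, -0.0169 for Etfb, -0.0124 for Fabp3, -0.0621 for Slc27a1 and -0.0078 for Slc2a4, and among only the BXH strains 0.0262 for Bcat2 and 0.0494 for Ppara. With 1 library a strain and no counts, changes of 0.25 were recovered in 34% of simulated cases, in a simulation with many true changes at once.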

Other observations

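Genes of sterol balance lay to both sides between the strains, although none was called. These genes were put together after their values were seen, and no test of them was made. Abca1, which loads cholesterol onto lipoproteins, was at 10.45 at the lowest, 10.70 at the median and 10.93 at the highest in high strains, against 10.70, 10.97 and 11.12 in low strains, a difference of -0.27 (SE 0.06, limma adjusted p = 0.550). Abcg1 differed by -0.42 (SE 0.10, limma adjusted p = 0.805) and Mylip, a ligase that degrades the LDL receptor, by -0.21 (SE 0.05, limma adjusted p = 0.928). All 3 are known targets of the liver X receptors, and of 14 such genes 9 had a negative and 5 a positive difference, with a median of -0.04. Of 26 genes of sterol synthesis and uptake 22 had a positive and 4 a negative difference, with a median of 0.08 beside 0.0037 over all genes. Sqle, an early enzyme of that synthesis, was at 6.84, 6.97 and 7.23 in high strains, against 6.31, 6.69 and 6.94 in low strains, a difference of 0.32 (SE 0.08, limma adjusted p = 0.906).

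Among the 20 genes with a position outside the window and the smallest p, 5 lie on chromosome 14 and 4 on the rest of chromosome 4. Over each region, 16 of 462 genes on chromosome 14 (3.46%) and 28 of 775 on the rest of chromosome 4 (3.61%) had an unadjusted p under 0.05, beside 1.85% of all placed genes outside the window. Chromosome 20 was close to both, with 12 of 358 (3.35%). The 5 genes on chromosome 14 were Hopx with a difference of -0.98 (SE 0.22), Rasl11b with -0.27 (SE 0.08), Wdr19 with -0.28 (SE 0.08), Sel1l3 with -0.55 (SE 0.12) and Nefh with 1.62 (SE 0.33), spread from 31055912 to 79840347 of rn7. On chromosome 4, M6pr with a difference of 0.33 (SE 0.08), Clec4a2 with -0.24 (SE 0.07), Eno2 with -0.43 (SE 0.12) and Vamp1 with -0.58 (SE 0.15) lie 138.0 to 140.5 Mb after Cd36. None was called. Whether these regions were inherited together with the Cd36 allele in these 21 strains was not tested, as no genotypes were used here.

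Lyve1, a marker of resident macrophages and lymphatic vessels, differed by 0.29 (SE 0.08, limma adjusted p = 1.00) and Cpa3, a protease of mast cells, by 0.52 (SE 0.18, limma adjusted p = 1.00). The summed level of 10 macrophage markers ran from 13.05 to 13.62 in high strains, against 12.99 to 13.68 in low strains (exact permutation p = 0.564, two-sided). That of 7 neutrophil and mast cell markers ran from 10.28 to 10.64 in high strains, against 10.22 to 10.69 in low strains, a difference of -0.02 (exact permutation p = 0.755, two-sided), opposite in sign to Cpa3, and single members of that list differed by -0.07 to 0.52. Lyve1 and Cpa3 had the smallest p of their lists.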
